A study of Homo sapiens with 6 samples.

Results

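The genes that build iron-sulfur clusters in mitochondria and bring iron into the organelle were measured in BxPC-3 xenograft tumors after treatment with the oral iron chelator Deferasirox (DFX). The 9 genes, chosen by symbol, were ISCU, NFS1, LYRM4, ISCA1, ISCA2, GLRX5, HSCB, SLC25A37 and SLC25A28, with every probe carrying 1 of these symbols. They came to 9 of the 36337 gene names on the array and were read by 15 of its 50599 probes. BxPC-3 is an epithelial cell line derived from a human pancreatic adenocarcinoma, and the tumors were grown under the skin of female BALB/c (nu/nu) mice that were 8 to 10 weeks of age at the start. Once tumors had reached 150 mm3, mice received DFX at 200 mg/kg by gavage on every second day (3 treatments per week) for 21 days, or the vehicle alone as controls, and 3 tumors of each group were analysed. Each tumor was hybridized to its own one-color human 60-mer array (n = 3 per group, 6 arrays). Both groups therefore share 1 cell line and a host that lacks T cells but keeps other stromal and blood cells, so the RNA can hold mouse transcripts that bind human probes. Because whole tumors were extracted, fewer cells of a type and less RNA per cell cannot be told apart.

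All 6 arrays were on 1 slide, with control tumors in row 1 and DFX-treated tumors in row 2, so that row and treatment cannot be told apart. Between 50.3% and 56.5% of the probes on an array were well above background, and the correlation between arrays ranged from 0.980 to 0.990. The 7 epithelial markers listed for BxPC-3, among them the keratins KRT7 and KRT19, were well above background on all 6 arrays. The labels do not say whether each tumor came from a different mouse, and p-values measure the spread between these 6 tumors. In limma the variance of each probe is drawn toward that of all tested probes.

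Iron-sulfur clusters are small cofactors that carry electrons in the respiratory chain and hold the active site of enzymes such as aconitase. In the mitochondrial matrix, the cysteine desulfurase NFS1, kept stable by LYRM4 (also called ISD11), supplies sulfur, and a cluster is put together on the scaffold protein ISCU. The co-chaperone HSCB and the Hsp70 protein HSPA9 release the cluster to the glutaredoxin GLRX5, and ISCA1 and ISCA2 act later, in making the larger clusters. The iron comes in through the mitoferrins of the inner membrane, SLC25A37 (mitoferrin-1, the main form in red cell precursors) and SLC25A28 (mitoferrin-2, found in most tissues).

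NFS1, LYRM4, ISCA1 and HSCB were read by more than 1 probe, and the sequences of ISCA1 are shown because its probes did not give the same picture. Positions are those of the array's annotation on hg19, counted in the transcript from its first base.
ISCA1 A_32_P25253: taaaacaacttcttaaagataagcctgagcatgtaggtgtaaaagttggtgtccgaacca
ISCA1 A_24_P387609, bases 1 to 30: tcttcaactatagtacagattagttctgag
ISCA1 A_23_P216766, bases 1 to 30: acgtcatccgcctatttttaatccatttct
The ISCA1 probe A_32_P25253 starts at base 220 of the transcript and crosses an exon junction, with its ends at chr9:88887000-88889135 on the minus strand. The other 2 ISCA1 probes lie farther along the same transcript, at bases 1024 and 1078, and have 6 bases in common. The first is annotated at chr9:88880381-88880440, while for the second the annotation gives only a stretch of 10 bases, chr9:88879453-88879462. Of the HSCB probes, A_23_P40588 also crosses a junction, whereas A_33_P3309231 lies in 1 piece.

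The first 30 bases of HSCB A_33_P3309231 resemble the Alu repeat, a short element present in very many copies in the human genome. With up to 6 mismatches in 30 bases on the same strand, they matched 4 probes designed for other genes or loci. On the opposite strand they matched 6, and bases 16 to 45 matched 2 on the same strand. The other 14 member probes were searched likewise at bases 1 to 30, 16 to 45 and 31 to 60, on both strands. Of these, 1 (for GLRX5) had a match, to 1 probe. No member probe shared 20 identical bases in a row with a probe of another gene, which 2.62% of the array's probes did. How much of the signal of HSCB A_33_P3309231 came from other transcripts with the repeat was not tested, and the values of both HSCB probes are given.

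None of the 15 member probes differed between DFX-treated and control tumors at an unadjusted p under 0.05 in limma, against 8.41% of all 31807 tested probes. All 15 had passed the detection filter and were well above background on all 6 arrays. The unadjusted p ranged from 0.0611 to 0.905 and the adjusted p from 0.610 to 0.981. Without control replicate 3 the count was 1, ISCA1 A_24_P387609. No probe of any gene on the array passed an adjusted p of 0.05, the lowest being 0.0675. Represented by the brightest probe, 5 members had a higher mean and 4 a lower mean in DFX-treated tumors, with a median log2 fold change of 0.014, beside -0.012 over the 23810 tested genes. HSCB enters here by its repeat-like probe A_33_P3309231, and with A_23_P40588 in its place, an alternative chosen after seeing the data, 4 members had a higher and 5 a lower mean, with a median of -0.017. The median size of the difference over the 15 probes was 0.11 on the log2 scale, and over all tested probes it was 0.16.

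**Figure D1:**
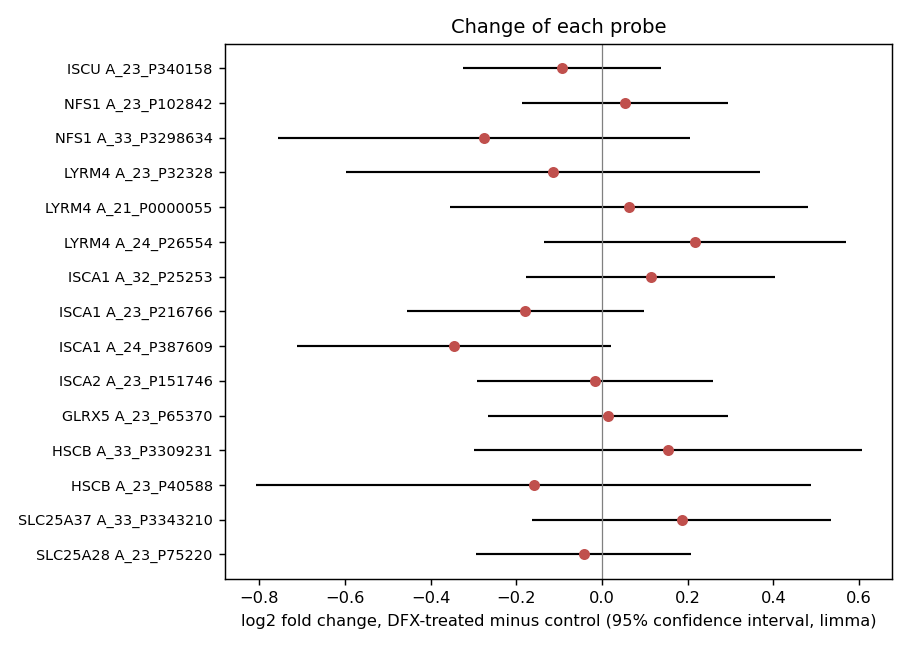
Log2 fold change of each of the 15 member probes, DFX-treated minus control tumors (x axis), with its 95% confidence interval from limma (line, n = 3 per group). Every interval includes 0 and none reaches a 2-fold change in either direction.

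The width of the intervals sets what these 6 tumors can show. The 95% confidence intervals of all 15 probes lay within a 2-fold difference in either direction, and those of 10 lay within 1.5-fold. The 5 that were wider belonged to NFS1 A_33_P3298634, LYRM4 A_23_P32328, ISCA1 A_24_P387609 and both HSCB probes. These intervals are not corrected for the number of probes. Each interval includes 0, and a true difference of any size inside a probe's own interval is not excluded for that probe.

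ISCU, the scaffold, had the narrowest interval and was the only member probe whose groups did not overlap, a separation that 15.5% of all tested probes had. Its log2 intensity at chr12:108963027-108963086 was 13.10, 12.99 and 13.04 in control tumors, while those given DFX read 12.94, 12.94 and 12.96. The lowest control tumor was thus only slightly above the highest treated one. The means were 13.04 ± 0.05 and 12.95 ± 0.01 (SD, n = 3), a log2 fold change of -0.094 (SE 0.095, adjusted p = 0.795 in limma). With the variance drawn toward that of all tested probes, this SE is larger than the 2 SDs alone would give. As a share of the control level this was -6.31%, with a 95% confidence interval from -20.2% to 9.95%. Of all tested probes, 67.9% had a larger difference. On slide column 2 (control replicate 1 and DFX replicate 2) the difference was -0.16 and on column 4 (both replicates numbered 3) it was -0.080.

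**Figure D2:**
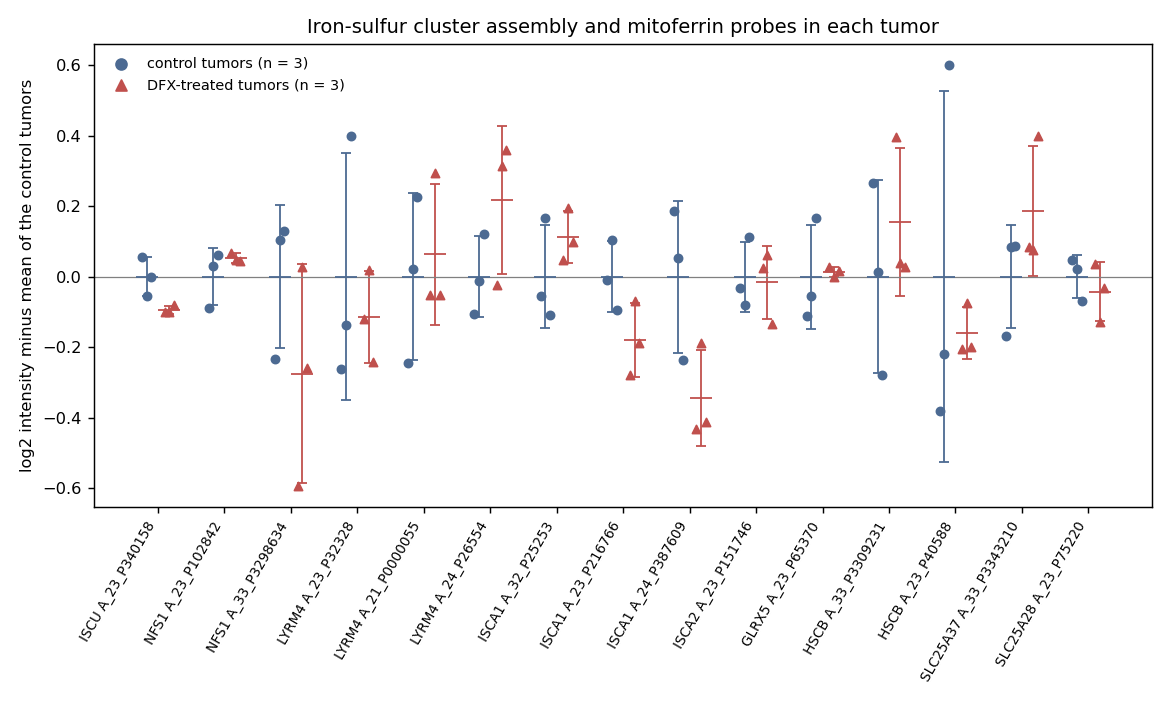
Log2 intensity of each member probe in each tumor, after the mean of the 3 control tumors was subtracted (y axis), for control tumors (circles) and DFX-treated tumors (triangles). Horizontal marks are group means and bars are SD (n = 3), and only for ISCU do the 2 groups not overlap.

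NFS1, the desulfurase, was read by a probe with 10 spots per array, at chr20:34257047-34257106. Its log2 intensity was 11.16, 11.28 and 11.32 in control tumors and 11.32, 11.30 and 11.30 in DFX-treated tumors. The treated tumors lay close together at the upper end of the control range. The log2 fold change was 0.053 (SE 0.098, 95% confidence interval -0.19 to 0.29, adjusted p = 0.893). The SD between spots within an array was 0.030 to 0.049, and 1 spot of DFX replicate 1 had been flagged and was left out. A second NFS1 probe, A_33_P3298634, annotated to transcript variant NM_001198989 at chr20:34284300-34284359, read 6.78, 7.11 and 7.14 in control tumors and 6.42, 7.04 and 6.75 in DFX-treated tumors. Its log2 fold change was -0.28 (95% confidence interval -0.76 to 0.20, adjusted p = 0.724), and the groups overlapped.

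LYRM4, the small partner that stabilizes NFS1, was read by 3 probes that pointed in different directions. A_23_P32328 read 10.20, 10.33 and 10.86 in control tumors and 10.34, 10.48 and 10.22 in DFX-treated tumors. Control replicate 3 stood above the other 5 tumors here, and the log2 fold change was -0.11 (95% confidence interval -0.60 to 0.37, adjusted p = 0.886), or 0.085 without that tumor. The probe of the transcript NM_001164840, A_21_P0000055, had a log2 fold change of 0.063 (95% confidence interval -0.36 to 0.48, adjusted p = 0.932). A_24_P26554 read 7.09, 7.19 and 7.32 against 7.18, 7.51 and 7.56, a log2 fold change of 0.22 (95% confidence interval -0.14 to 0.57, adjusted p = 0.708). No pair of LYRM4 probes separated the groups by the difference between their values within a tumor.

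HSCB, the co-chaperone that hands the new cluster on, gave differences of opposite sign on its 2 probes, neither beyond the spread. The junction-crossing probe A_23_P40588 read 8.41, 8.57 and 9.39 in control tumors and 8.59, 8.72 and 8.59 in DFX-treated tumors. Control replicate 3 was again far above the others, and the log2 fold change of -0.16 (SE 0.27, 95% confidence interval -0.81 to 0.49, adjusted p = 0.881) became 0.14 without it. The repeat-like probe A_33_P3309231 read 17.27, 17.02 and 16.73 in control tumors and 17.40, 17.05 and 17.03 in DFX-treated tumors. Its log2 fold change was 0.15 (95% confidence interval -0.30 to 0.61, adjusted p = 0.831). The 4 probes of other names that matched its first 30 bases on the same strand had log2 fold changes from 0.066 to 0.20, with p from 0.303 to 0.519 in limma. All were above 0, but on slide column 2 these probes differed by 0, 0, -0.13 and -0.20. On column 4 they differed by 0.15, 0.17, 0.76 and 0.41. For HSCB A_33_P3309231 the same columns gave -0.23 and 0.31. On this probe control replicate 3 was the lowest tumor, and on A_23_P40588 it was the highest.

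GLRX5, which carries clusters from the scaffold to their receivers, had among the smallest differences of all probes, since 94.7% of the tested probes differed more. It read 12.53, 12.59 and 12.81 in control tumors and 12.67, 12.64 and 12.66 in DFX-treated tumors, at chr14:96010787-96010846. The treated tumors fell within the control range. The log2 fold change was 0.014 (SE 0.11, 95% confidence interval -0.27 to 0.29, adjusted p = 0.981).

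ISCA2, at chr14:74961983-74962042, works in a pair with ISCA1. Its values were 11.84, 11.79 and 11.98 in control tumors and 11.90, 11.93 and 11.74 in DFX-treated tumors, with full overlap. The log2 fold change was -0.017 (SE 0.11, 95% confidence interval -0.29 to 0.26, adjusted p = 0.977).

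ISCA1 was the only one of the 4 genes with several probes whose probes separated the groups when one was subtracted from another. The junction-crossing probe A_32_P25253, near the start of the transcript, read 8.85, 9.07 and 8.79 in control tumors and 8.95, 9.09 and 9.0 in DFX-treated tumors, a log2 fold change of 0.11 (adjusted p = 0.805). A_23_P216766 read 8.08, 8.20 and 8.0 against 7.82, 8.02 and 7.91, a log2 fold change of -0.18 (adjusted p = 0.696). A_24_P387609 read 7.29, 7.16 and 6.87 against 6.68, 6.92 and 6.69, a log2 fold change of -0.34 (SE 0.15, 95% confidence interval -0.71 to 0.022, adjusted p = 0.610). On each probe alone the groups overlapped. A_24_P387609 passed an unadjusted p of 0.05 in 4 of the 19 other ways of processing, among them the removal of control replicate 3 (-0.46), and A_23_P216766 in 1 of them. As a share of the control level, the difference on A_24_P387609 was -21.3%, the largest among the 15 member probes, and 21.7% of all tested probes had a larger one.

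Within each tumor, the log2 value of A_24_P387609 minus that of A_32_P25253 was -1.55, -1.91 and -1.92 in control tumors and -2.27, -2.18 and -2.31 in DFX-treated tumors. All treated tumors lay below all control tumors, with a mean difference of -0.46. For A_23_P216766 minus A_32_P25253 the values were -0.76, -0.87 and -0.79 against -1.13, -1.07 and -1.09, again without overlap, with a mean difference of -0.29. In all, 8 such pairs of probes of 1 gene were compared, and 2 of them separated the groups. Both of these include A_32_P25253, so they are not independent of each other. How often such pairs separate the groups over the whole array was not counted. The exact permutation test, two-sided, gave p = 0.1 for each of the 2, which is the smallest p that 3 against 3 tumors allow, and 0.32 after adjustment over the 8 pairs. The first difference was -0.28 on the signal without background subtraction and -0.29 with normexp background correction.

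**Figure D3:**
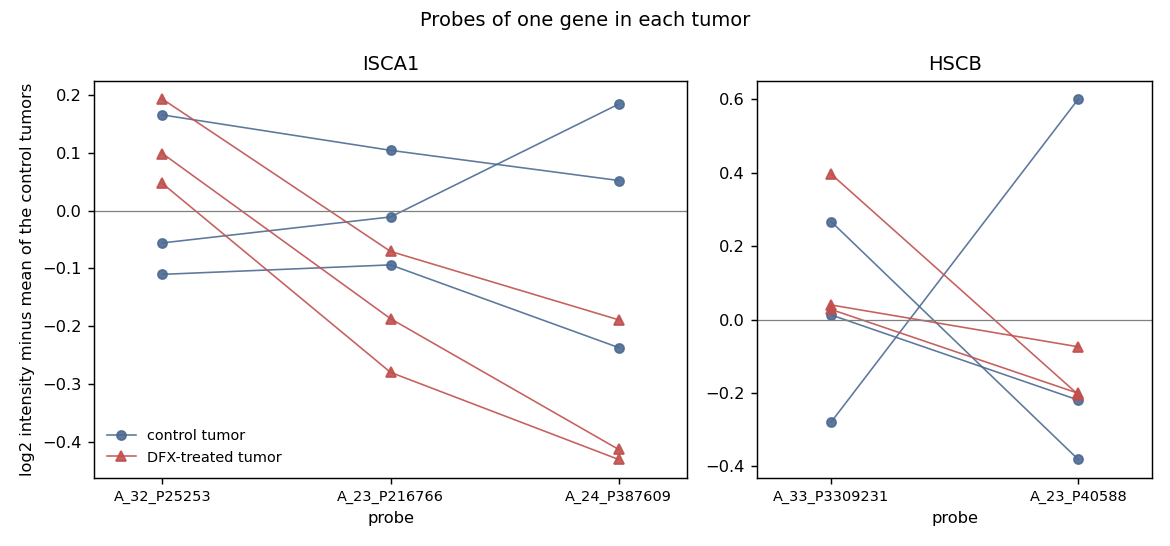
Log2 intensity minus the mean of the control tumors (y axis) on the probes of ISCA1 and HSCB (x axis), with a line joining the values of each control tumor (circles) and each DFX-treated tumor (triangles), n = 3 per group. All DFX-treated tumors go down from the first ISCA1 probe to the others. At A_24_P387609 the mean difference from control tumors is -0.34, and it is -0.46 once the value of A_32_P25253 is subtracted within each tumor. On HSCB the lines cross, with control replicate 3 running opposite to the rest.

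For the mitoferrins no difference beyond the spread between tumors was found. SLC25A37, on chromosome 8, read 9.82, 10.07 and 10.08 in control tumors and 10.07, 10.07 and 10.39 in DFX-treated tumors, with DFX replicate 3 the highest. Its log2 fold change was 0.19 (SE 0.14, 95% confidence interval -0.16 to 0.54, adjusted p = 0.739), or 0.25 on slide column 2 and 0.31 on column 4. SLC25A28, at chr10:101370674-101370733, read 9.94, 9.92 and 9.83 in control tumors and 9.93, 9.77 and 9.86 in DFX-treated tumors. Its log2 fold change was -0.042 (SE 0.10, 95% confidence interval -0.29 to 0.21, adjusted p = 0.923).

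In 6 of the 15 member probes, both slide columns that held 1 tumor of each group had the sign of the overall difference, and in the other 9 the columns had opposite signs. The range of the DFX-treated tumors was narrower than that of the control tumors in 9 of 15 member probes (60%), beside 53.8% of all tested probes. The tight DFX values of ISCU, GLRX5 and NFS1 are therefore given as a description.

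The genes that work with the members were examined as 5 lists covering core assembly partners, late-acting factors, transport partners, cytosolic assembly and mitochondrial proteins that receive clusters. Of 45 genes listed, 44 were tested, and by the brightest probe none passed an unadjusted p of 0.05, beside 7.91% of all tested genes. The mean was higher in 24 and lower in 20, with a median log2 fold change of 0.0070. By the brightest probe, no gene of the 5 lists differed by more than 1.5-fold, whereas 8.80% of all tested genes did.

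Among the core partners, HSPA9, the Hsp70 partner of HSCB, had a log2 fold change of 0.060 (adjusted p = 0.920). The median of the 7 core partners was 0.060 and that of the 5 late-acting factors was 0.043.

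Of the transport partners, ABCB10, which stabilizes SLC25A37 in red cell precursors, read 8.97, 8.94 and 9.34 in control tumors and 8.77, 8.93 and 9.0 in DFX-treated tumors. Its log2 fold change was -0.19 (SE 0.15, adjusted p = 0.746). ABCB8, another transporter of the inner membrane and named here after its values were seen, read 6.53, 6.60 and 7.0 against 6.46, 6.23 and 6.35, a log2 fold change of -0.37 (adjusted p = 0.610), with groups that did not overlap. GFER, a sulfhydryl oxidase likewise named after its values were seen, had the largest difference of the list, 0.54 (SE 0.30, adjusted p = 0.662), also without overlap between the groups and with DFX replicate 3 (8.58) far above the other 2 treated tumors (7.48 and 7.61). Groups without overlap were found for 15.5% of all tested probes. Of the 6 transport partners 3 had a higher and 3 a lower mean, with a median of -0.069.

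For the cytosolic assembly machinery, which passes clusters to enzymes outside mitochondria, 10 of 11 genes were tested and the median log2 fold change was 0.042, with 7 higher and 3 lower. For the 16 mitochondrial recipients, 6 were higher and 10 lower, with a median of -0.028. SDHB, the iron-sulfur subunit of succinate dehydrogenase, had a log2 fold change of -0.28 (adjusted p = 0.643) and CDK5RAP1, which modifies mitochondrial tRNA, had 0.22 (adjusted p = 0.627), both named after their values were seen. A list of 16 genes for mitochondrial mass, such as the outer membrane channels VDAC1 to VDAC3 and the import receptor TOMM20, had a median of -0.0099 with 8 higher, 8 lower and none past the threshold.

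Counting every probe rather than the brightest, 2 of the 59 tested probes of the 5 lists (3.39%) passed an unadjusted p of 0.05, both lower and both chosen after their values were seen. NFU1, a late carrier of clusters, had a dim second probe, A_33_P3278392, that read 4.18, 4.64 and 4.48 in control tumors and 3.41, 3.42 and 3.89 in DFX-treated tumors. It was well above background on all 3 control arrays and on 0 of the DFX arrays, so that the fold is a bound, at least 1.08-fold higher in control tumors (adjusted p = 0.513). The brightest NFU1 probe had a log2 fold change of 0.043 (adjusted p = 0.922). NDOR1, a reductase of the cytosolic machinery, had -0.43 on A_33_P3404508 (adjusted p = 0.588) with overlapping groups, while its brightest probe had 0.20 (adjusted p = 0.752).

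**Figure D4:**
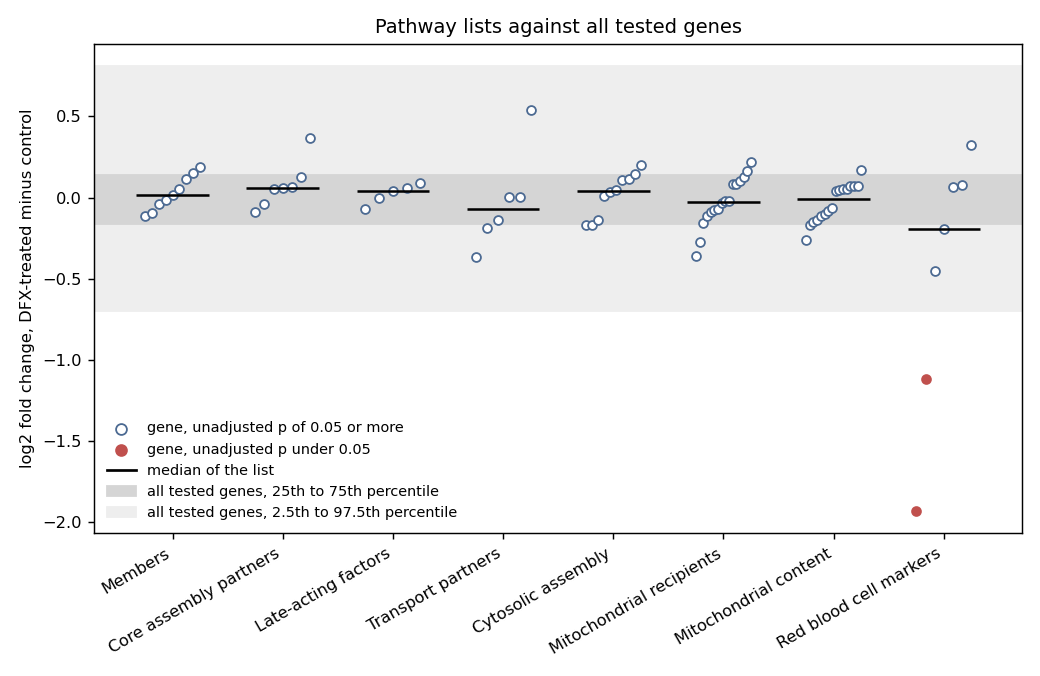
Log2 fold change, DFX-treated minus control tumors (y axis), of each tested gene by its brightest probe (circles, the repeat-like one for HSCB) in the members, the 5 pathway lists, mitochondrial mass genes and red blood cell markers (x axis), with list medians (black lines) and percentiles of all 23810 tested genes (grey bands). No gene passes an unadjusted p of 0.05 outside the red blood cell markers, of which HBA2 and HBD (filled circles) are lower.

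Red blood cell precursors have a high demand for mitochondrial iron, so their markers were read beside the members. HBA2, the alpha-globin gene, read 12.44, 12.67 and 12.27 in control tumors and 10.47, 10.53 and 10.59 in DFX-treated tumors, and HBD had a log2 fold change of -1.12 (adjusted p = 0.504). The log2 fold change of HBA2 was -1.93 (SE 0.13, adjusted p = 0.0928). Of the 12 markers listed, 7 were tested and 2 passed an unadjusted p of 0.05, and the summed intensity of those tested was 12.76 to 13.00 in control and 11.68 to 11.76 in DFX-treated tumors on the log2 scale. In control tumors HBA2 was by far the brightest of those tested and weighs most in the sum. ALAS2, AHSP and GYPB did not pass the detection filter. SLC25A37, the red cell mitoferrin, had its higher mean in the DFX-treated tumors (above).

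Of the 7 epithelial markers, 6 had a higher and 1 (KRT7, log2 fold change -0.17) a lower mean in DFX-treated tumors, and EPCAM (0.43), KRT8 (0.48) and KRT18 (0.27) passed an unadjusted p of 0.05. The summed intensity of the whole list, on the log2 scale, was 19.26 in each control tumor and 19.29 to 19.32 in DFX-treated tumors. KRT19, the brightest marker (mean 18.47 in control and 18.49 in DFX-treated tumors), weighs most in this sum. The median of the list, relative to each gene's control mean, was -0.070 to 0.085 in control tumors and 0.22 to 0.32 in DFX-treated tumors. The part of tumor cell content in the values of the members was not tested.

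For ISCU and SLC25A37, the genes with the most similar pattern over the 6 tumors were found by the root-mean-square difference of log2 values centred on their mean. For ISCU these were MR1 (0.0163), DCAF4 (0.0223) and CUL4B (0.0236), and 200 of 18554 genes were within 0.05. For SLC25A37 they were XLOC_l2_010558 (0.0353), WHAMMP2 (0.0437) and TRIM61 (0.0454), with 5 genes within 0.05. The values of ISCU varied little (SD 0.057 over the 6 tumors) and had many close matches, whereas those of SLC25A37 (SD 0.16) had few.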

How the data were processed

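RNA from 6 tumors was labeled with Cy3 and hybridized, 1 tumor per array. The sample labels gave groups and replicate numbers for all 6. The authors deposited scanner files with each spot's intensity on a linear scale, a p-value against background and flags (Agilent Feature Extraction 10.7.1.1 per the file headers, 9.5.1.1 per the labels), and a table of processed intensities, which served as an alternative.

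The background-subtracted intensity was log2-transformed and quantile-normalized over 58717 non-control spots, after which 1398 spots flagged as outliers were left out and replicate spots were averaged per probe. Detection required a background p-value under 0.05 on each of the 6 arrays, which 31807 of 50599 probes met. The comparison used limma 3.58.1 (lmFit and eBayes, R 4.3.3), two-sided, and p-values were adjusted over every tested probe (Benjamini-Hochberg). The steps were tested on simulated data. No spot was saturated. The number of arrays limits the precision.

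A gene was represented by its brightest tested probe in lists. If all arrays of a group lacked a well-above-background signal for a probe, the fold is a bound set against the dimmest such signal of each array, or against the probe itself if brighter. The 9 members and all lists were chosen with earlier results of these data known. Genes named outside the members were those passing an unadjusted p of 0.05 without overlap, HSPA9 and ABCB10, apart from those stated to be chosen afterwards and cell type markers. The fibroblast, leukocyte and endothelial lists gave 2 of 7, 0 of 6 and 1 of 4 tested genes past that threshold. Some genes of the lists and some sequences are not reported here. Sequences and positions are those of the array design (hg19), which gives no exon or UTR annotation. Alternatives covered normalization, background, filters, flags, the test, blocks, weights, the mean over a gene's probes and leaving out single tumors, and HSCB by its other probe and a variance trend were added after seeing the data.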

Additional observations from a re-analysis of the deposited data

How the results depend on the processing

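The number of arrays and the shared slide row are the main limits, and no member probe passed an adjusted p of 0.05 under any of the 19 alternatives. The count of member probes at an unadjusted p under 0.05, which was 0, became 1 with median scaling, 1 with the filter on probes well above background, 2 with array weights and 1 (ISCU) with the Kruskal-Wallis H test, whose approximate p is below the exact minimum of 0.1 for 3 against 3. Leaving out each tumor in turn gave 0 to 1, the 1 being ISCA1 A_24_P387609 without control replicate 3 (-0.46). That probe also passed with array weights (-0.42, with A_23_P216766 at -0.26), median scaling (-0.39) and the filter (-0.34). The members' median was -0.094 with median scaling, which moved all probes to a median of -0.10, and -0.019 to 0.058 with tumors left out, the highest without control replicate 3. Calls over all probes numbered 4927, 4213 and 1418 with the Kruskal-Wallis H test, array weights and the slide column as a block. Of the 2675 probes called as reported, 58.8% were lower, and the lower share of calls was 71.8% with median scaling, 42.6% with 75th percentile scaling and 51.1% with the slide column as a block. The cause was not tested.

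Of 285 values of member probes under alternatives, 16 changed sign, none with a p under 0.284. With median scaling these were GLRX5 (-0.094), LYRM4 A_21_P0000055 (-0.039) and NFS1 A_23_P102842 (-0.069), as well as HSPA9 (-0.063). GLRX5 and HSPA9 were -0.020 and -0.029 with the slide column as a block. ISCA2 was 0.046 with array weights, 0.013 with normexp and 0.013 on the raw mean signal. With single tumors left out, the log2 fold change ranged from -0.042 to 0.098 for GLRX5, -0.35 to 0.14 for HSCB A_23_P40588, -0.014 to 0.17 for HSPA9, -0.057 to 0.042 for ISCA2, -0.060 to 0.18 for LYRM4 A_21_P0000055, -0.24 to 0.085 for LYRM4 A_23_P32328 and -0.081 to 0.00092 for SLC25A28.

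Replicate numbers did not pair the tumors (correlations of deviations 0.027, 0.027 and 0.016). The replicate block left the count of member probes at 0, with 2419 probes called in all.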
